A study of Homo sapiens with 5 samples.

Results

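LINC and antisense RNAs are long noncoding RNAs, transcripts without a long open reading frame that are processed much like messenger RNA. The LINC symbols name intergenic transcripts by number, and the antisense symbols carry the name of a neighbouring gene that is read from the other strand. Members were chosen by symbol alone, as rows whose gene name begins with LINC and digits or ends in -AS and a digit. This gave 203 of the 11976 genes in the authors' deposited table, 58 LINC and 145 antisense RNAs.

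The table compares 3 libraries labelled ERF knockout with 2 labelled wild type, both made from total RNA of HUDEP-2, a permanently growing erythroid line from cord blood. ERF is a repressor of the ETS family of transcription factors, and γ-globin is the gene named in the series title. The wild-type titles carry the letters SCR, which the labels do not explain. The name of the authors' deposited comparison carries the letters Pre, which that name does not explain. Whether the knockout is 1 clone, and whether the libraries of a group are separate cultures, was not stated in the labels, so the p-values cover no more than the variation among these 5 libraries, which may be technical.

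Antisense genes often start next to the start of their named gene and run the other way, so that both use 1 stretch of promoter, or they run through its body. Several are known to act on the neighbouring gene, while for most no role is established. Many such RNAs are short-lived and scarce, because the nuclear exosome degrades them soon after synthesis. Erythroid cells lose most of their transcription as they mature, and a few long noncoding RNAs are known to be needed on that path.

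The authors' deposited table holds a fold change, a mean level over all libraries and a test per gene, and no value per library, so the depth of each library is unknown and no per-library level is shown. Its header names no reference group. The sign was set so that the γ-globin gene HBG2 is higher in the libraries labelled knockout (log2 fold change 1.88 in the authors' deposited table), as the series title has it. With this sign ERF itself goes against its label, at 0.89 (standard error, SE, 0.07) in the authors' deposited table, so directions below are for the libraries as labelled. With the other sign each "higher" and "lower" below is exchanged, whereas the counts of pairs that moved together or apart stay as they are. The labelled cell type was checked with marker genes. All 16 erythroid markers were measured, with a median of 7.45 log2 CPM (reads of a gene scaled to library size) in the authors' deposited table. Of the 16, 9 were higher and 1 lower in the authors' deposited table, led by SLC4A1 (1.77), HBA2 (1.06) and TFRC (1.01). The share of these markers past the authors' adjusted p of 0.05 was 62.5%, against 50.9% over all genes. The share that was higher was 56.25%, against 24.9% over all genes. Of 16 markers of other cells 4 were measured in the authors' deposited table, VIM (-0.52) and EPCAM (-0.20) being lower, ITGA2B (-0.07) and PTPRC (0.08) not past the threshold. Their mean levels were 7.36 log2 CPM for EPCAM, 7.26 for ITGA2B, 5.95 for PTPRC and 1.77 for VIM, so the first 3 were abundant here. The part of maturation or cell makeup in the results was not tested, and in bulk RNA fewer cells of a type and less RNA per cell cannot be told apart.

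Where LINC and antisense RNAs changed, most were lower in the libraries labelled knockout. Of the 203 members, 87 had an adjusted p below 0.05 in the authors' deposited table, 70 lower and 17 higher. The background over all genes was 50.9% called, with 25.9% lower and 24.9% higher. Among members 34.5% were lower and 8.37% were higher in the authors' deposited table. The median log2 fold change of the members was -0.20, against 0.00 over all genes, and 138 of 203 lay below 0 in the authors' deposited table.

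Both kinds of RNA leaned this way. Of 58 LINC RNAs 24 were lower and 9 higher, with a median of -0.25 in the authors' deposited table. Of 145 antisense RNAs 46 were lower and 8 higher, with a median of -0.18 in the authors' deposited table. The genes that the antisense RNAs are named after were divided evenly. Of 129 such genes, 37 were lower and 35 higher in the authors' deposited table, and their median was 0.00.

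**Figure D1:**
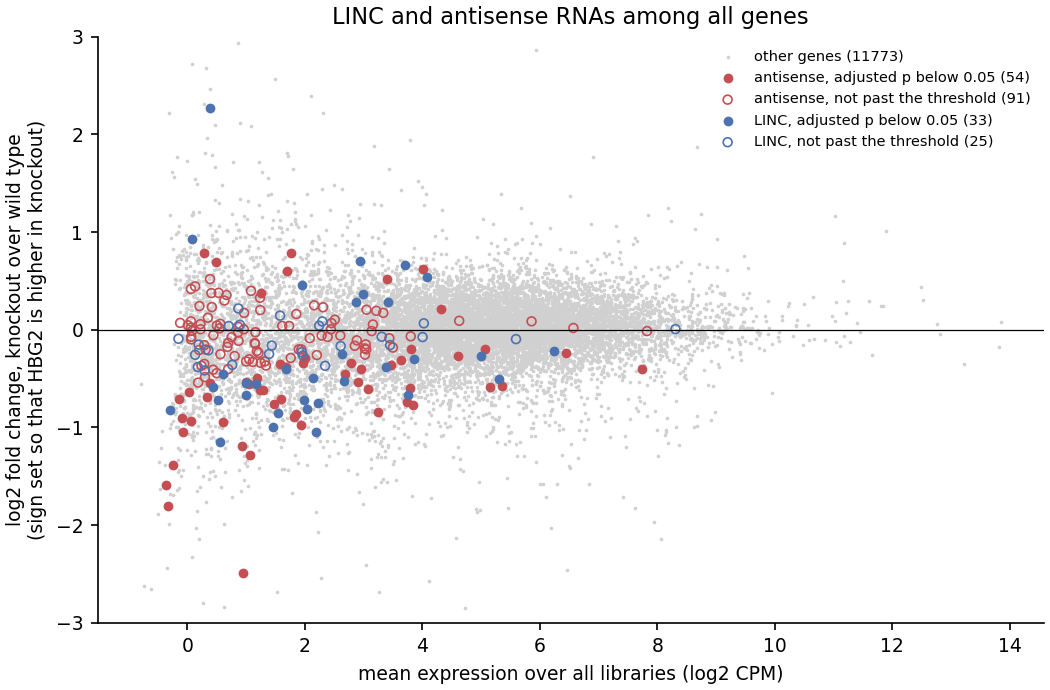
Log2 fold change (vertical axis, knockout over wild type, sign set through HBG2) against mean expression (horizontal axis, log2 CPM over all libraries) for 11976 genes, with antisense RNAs in red, LINC RNAs in blue and other genes in grey; filled symbols have an adjusted p below 0.05. Most filled symbols lie below 0 and at low expression, and genes beyond 3 in either direction, none of them a member, are not drawn.

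Most members were scarce. Their median level was 1.46 log2 CPM, against 4.64 over all genes, in the authors' deposited table. The SE of a log2 fold change, worked out from F in the authors' deposited table, had a median of 0.14 for members and 0.07 for all genes. A small change of a member is therefore harder to call than one of a typical gene. Members were set beside protein-coding genes of similar mean expression, with gene types from GENCODE 29.

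Below 1 log2 CPM, 24.0% of 75 members and 22.5% of 635 protein-coding genes were lower in the authors' deposited table. From 1 to 3 log2 CPM the shares were 40.0% of 80 members and 26.1% of 1478 protein-coding genes in the authors' deposited table. From 3 to 5 log2 CPM they were 36.1% of 36 members and 27.3% of 3389 protein-coding genes in the authors' deposited table. The share of members that were lower was thus above that of protein-coding genes in these classes, by little in the scarcest one.

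Calls in the other direction were rarer among members at each level. Below 1 log2 CPM, 5.33% of members and 114 of 635 protein-coding genes were higher in the authors' deposited table. From 1 to 3 log2 CPM the shares were 8.75% and 18.8%, and from 3 to 5 log2 CPM 16.7% and 23.8%, in the authors' deposited table. Only 12 members reached 5 log2 CPM, of which 58.3% were lower and 0 higher in the authors' deposited table. Of 5129 protein-coding genes at that level, 24.2% were lower and 31.9% higher in the authors' deposited table.

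The lean was not particular to these symbols. Of 533 other long noncoding genes, most of them known by a clone name, 160 were lower and 58 higher in the authors' deposited table. Of 320 pseudogenes, 33.8% were lower and 6.25% higher in the authors' deposited table. Reads outside any annotated gene also moved this way, at -0.17 on the log2 scale (SE 0.05, adjusted p = 0.0117 by the authors' test) in the authors' deposited table. Reads that fell on more than 1 gene stood at 0.03 (adjusted p = 0.411) in the authors' deposited table. The part of this background in the lower members was not tested.

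**Figure D2:**
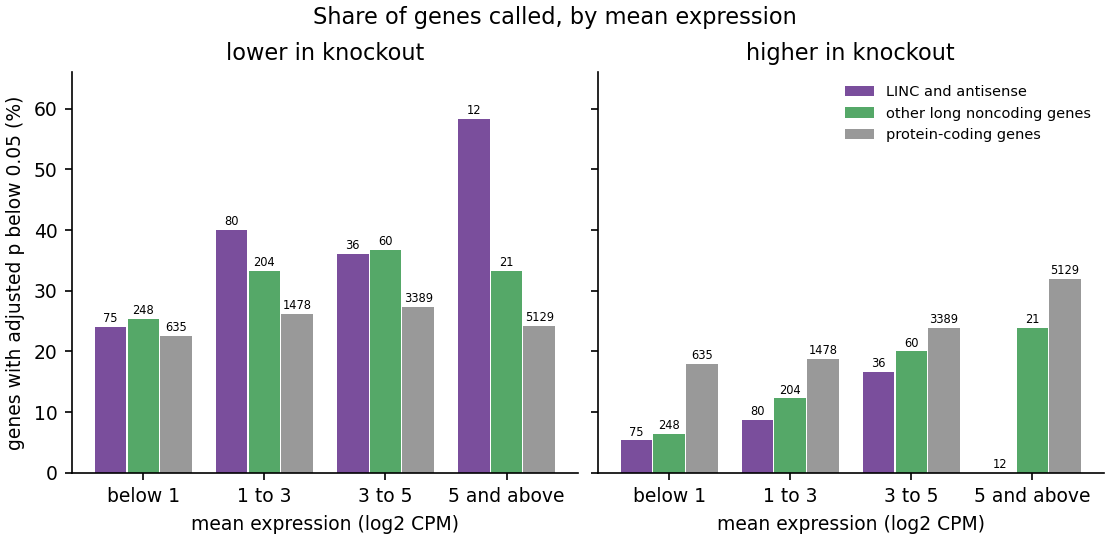
Share of genes with an adjusted p below 0.05 (vertical axis, percent) that were lower (left) or higher (right) in the libraries labelled knockout, by mean expression (horizontal axis, log2 CPM), for LINC and antisense RNAs, other long noncoding genes and protein-coding genes; the number of genes stands above each bar. From 1 to 3 log2 CPM 40.0% of members and 26.1% of protein-coding genes were lower, and 8.75% and 18.8% were higher.

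Among the LINC RNAs, the lowest was LINC00173 (ENSG00000196668, chromosome 12), 2.22-fold lower in the authors' deposited table. Its log2 fold change was -1.15 (SE 0.17, adjusted p = 0.000345) in the authors' deposited table. LINC00263 (ENSG00000235823, chromosome 10), now named OLMALINC, followed at -1.05 (SE 0.13, adjusted p = 0.000101) in the authors' deposited table. LINC00888 was 1.99-fold lower, with LINC00957 at -0.85, LINC00471 at -0.82 and LINC00339 at -0.82 on the log2 scale in the authors' deposited table. GENCODE 29 lists LINC00888, and LINC00680 below, as pseudogenes copied from another gene, so reads may be divided between copies and their values are uncertain. These 6 RNAs were scarce, from -0.30 log2 CPM for LINC00471 to 2.18 log2 CPM for LINC00263 in the authors' deposited table.

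A single LINC RNA had a large increase. LINC00861 (ENSG00000245164, chromosome 8) was 4.81-fold higher, at 2.27 on the log2 scale (SE 0.43, adjusted p = 0.00147) in the authors' deposited table, and its 95% interval reached from 1.32 to 3.22. Its mean level was 0.38 log2 CPM. LINC00941 stood at 0.93, LINC00680 at 0.70, LINC00641 at 0.67, LINC00863 at 0.54 and LINC00883 at 0.46 in the authors' deposited table. LINC00641 and LINC00863, at 3.70 and 4.08 log2 CPM, had SEs of 0.08 and 0.07 and were the best measured of these in the authors' deposited table.

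Among the antisense RNAs, SLC7A11-AS1 (ENSG00000250033, chromosome 4) was the lowest, 5.63-fold lower in the authors' deposited table. Its log2 fold change was -2.49 (SE 0.20, adjusted p = 7.35e-06) in the authors' deposited table. VIM-AS1 stood at -1.80, MYB-AS1 at -1.39, ZBED3-AS1 at -1.28 and SRD5A3-AS1 at -1.18 in the authors' deposited table. The gene in the name of each of these 5 was lower as well. The increases were smaller, led by NR2F2-AS1 and FBXL19-AS1 at 0.79 each in the authors' deposited table. UBAC2-AS1 stood at 0.69, RNF144A-AS1 at 0.62, MORC2-AS1 at 0.60 and VPS9D1-AS1 at 0.52 in the authors' deposited table. For these last 4 and for FBXL19-AS1 the named gene was not past the threshold.

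**Figure D3:**
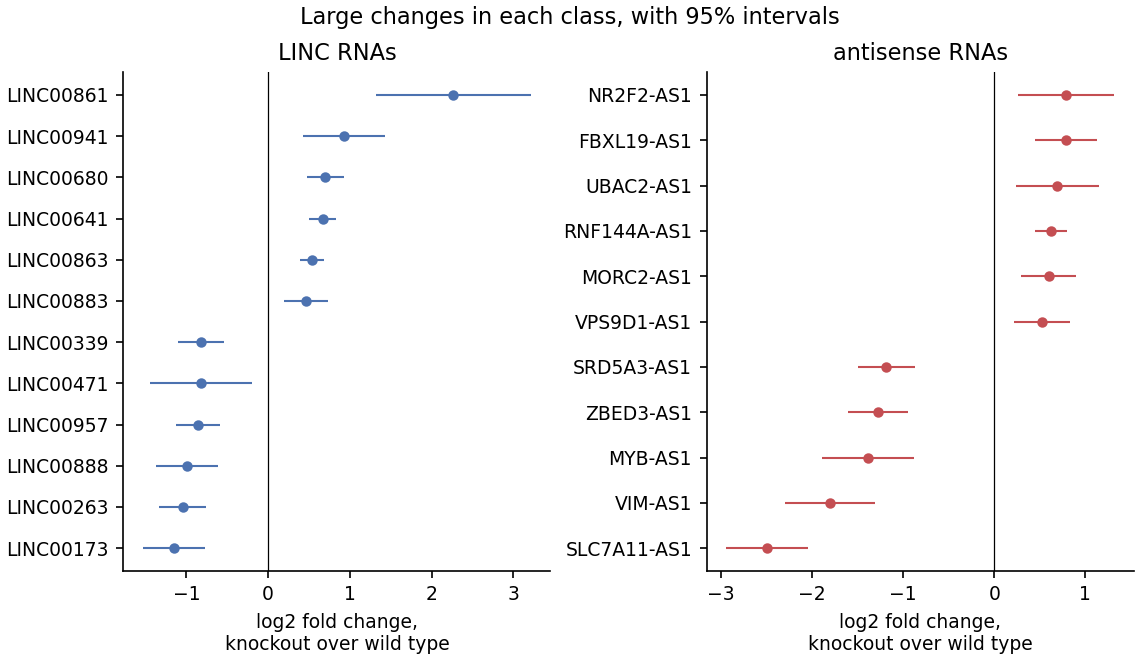
Log2 fold change (horizontal axis, knockout over wild type) of the 6 highest and 6 lowest called LINC RNAs (left) and of 6 higher and 5 lower antisense RNAs (right), with 95% intervals derived from the fold change and F. SLC7A11-AS1 at -2.49 and LINC00861 at 2.27 stand farthest from 0 in their panels.

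Of the 5 most abundant members, 3 had 95% intervals that included 0. LINC00657, now NORAD, which binds Pumilio proteins in the cytoplasm, had the highest level of 8.31 log2 CPM and a log2 fold change of 0.01 (95% interval -0.09 to 0.11) in the authors' deposited table. OIP5-AS1, also called Cyrano, a conserved RNA that triggers decay of the microRNA miR-7, had 7.82 log2 CPM and a log2 fold change of -0.01 (95% interval -0.15 to 0.13) in the authors' deposited table. FGD5-AS1 stood at 0.02 (95% interval -0.10 to 0.14) in the authors' deposited table. The other two, FAM211A-AS1 and TP73-AS1, were lower. FAM211A-AS1, now SNHG29 and a host gene of small nucleolar RNAs, stood at -0.40 (SE 0.05, adjusted p = 6.42e-05) in the authors' deposited table. TP73-AS1 stood at -0.24 (SE 0.05) in the authors' deposited table.

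Some members are now known to encode proteins, 10 of the 199 found in GENCODE 29. Of these 3 were lower and 1 higher in the authors' deposited table, a share called of 40.0%, against 50.9% over all genes. LINC00998, now SMIM30, which encodes a small membrane protein, stood at -0.22 (adjusted p = 0.00947) in the authors' deposited table. LINC00094, now BRD3OS, was the higher one at 0.28 (adjusted p = 0.0396) in the authors' deposited table. This call did not hold after centring on abundant genes, where LINC00094 stood at 0.25. LINC00493, now SMIM26, and LINC00116, now MTLN, both of which encode small mitochondrial proteins, stood at -0.16 and 0.05 in the authors' deposited table and were not past the threshold.

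Members with a described function or product were taken as a list of characterised RNAs. Of 12 measured, 4 were lower and 1 higher in the authors' deposited table, a share called of 41.7%, against 50.9% over all genes. ZNRD1-AS1, in the major histocompatibility region, was lowest at -0.74 (SE 0.10, adjusted p = 0.000213) in the authors' deposited table. EPB41L4A-AS1 stood at -0.31 and LINC00152, now CYTOR, at -0.27 in the authors' deposited table. LINC00152 shares near-identical sequence with MIR4435-1HG, which stood at -0.19 in the authors' deposited table, so the division of reads between them is uncertain. LINC00467 (-0.16), GABPB1-AS1 (-0.19) and MAPKAPK5-AS1 (-0.24) missed the threshold for a call in the authors' deposited table. LINC00478, now MIR99AHG, the host gene of let-7c and miR-99a, was chosen after its value was seen and stood at -0.58 (adjusted p = 0.0413) in the authors' deposited table.

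Each antisense RNA was then compared with the gene in its name, for 129 of 145 whose named gene was measured. In GENCODE 29 (GRCh38), 127 of these pairs could be placed, all on opposite strands. In 83 pairs exons of the 2 genes overlap, in 15 the gene bodies overlap without shared exonic bases, and in 29 they do not overlap. The nearest start sites were a median of 186 bases apart, and 86 pairs had starts within 1000 bases. Per kilobase of exon, the antisense RNA had the lower mean level in 105 of 127 pairs, by a median of 2.41 log2 units in the authors' deposited table.

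The kit named in the labels does not mark the strand of a read, and the strand setting of the counting step is not stated in the labels. Where exons overlap, reads of an antisense RNA and of its partner therefore cannot be told apart.

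Of the 129 pairs, 32 had both RNAs called in the authors' deposited table. In 22 of them both moved in the same direction, 21 lower and 1 higher. In 10 they moved in opposite directions, and in 9 of these the antisense RNA was lower and the named gene higher. In a further 20 pairs the antisense RNA alone was called, in 40 the named gene alone, and in 37 neither. The background of called genes was 50.9%, and within these 129 pairs 40.3% of the antisense RNAs and 55.8% of the named genes were called in the authors' deposited table. The balance turned with the expression minimum. With at least 3 log2 CPM for both RNAs, 2 of 22 pairs moved together and 5 apart, and with a change of at least 1.5-fold 6 moved together and 0 apart.

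The fold change of the antisense RNA was below that of its partner in 86 of 129 pairs, with a median difference of -0.20 log2 units in the authors' deposited table. The 95% intervals of the 2 RNAs lay apart in 39 pairs, and in 32 of these the antisense RNA was the lower one. Across the 129 pairs Pearson's r of the 2 log2 fold changes was 0.55 and Spearman's rho 0.35. Without SLC7A11-AS1 they were 0.43 and 0.33. All points come from the same 5 libraries, so this is a description only.

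The likeness of the 2 RNAs differed with the layout. In the 83 pairs with overlapping exons r was 0.64 and rho 0.42, and 14 pairs moved together against 5 apart. In the 15 pairs with overlapping bodies only, r was 0.68, and 6 moved together against 1 apart. In the 29 pairs that do not overlap, r was 0.01 and rho 0.02, and 2 moved together against 3 apart. The set with overlapping exons holds the SLC7A11 pair, and in this set reads of the 2 RNAs on shared bases cannot be told apart. In the set with overlapping bodies only, unspliced reads of 1 gene may have been counted for the other. The difference between layouts was not tested.

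**Figure D4:**
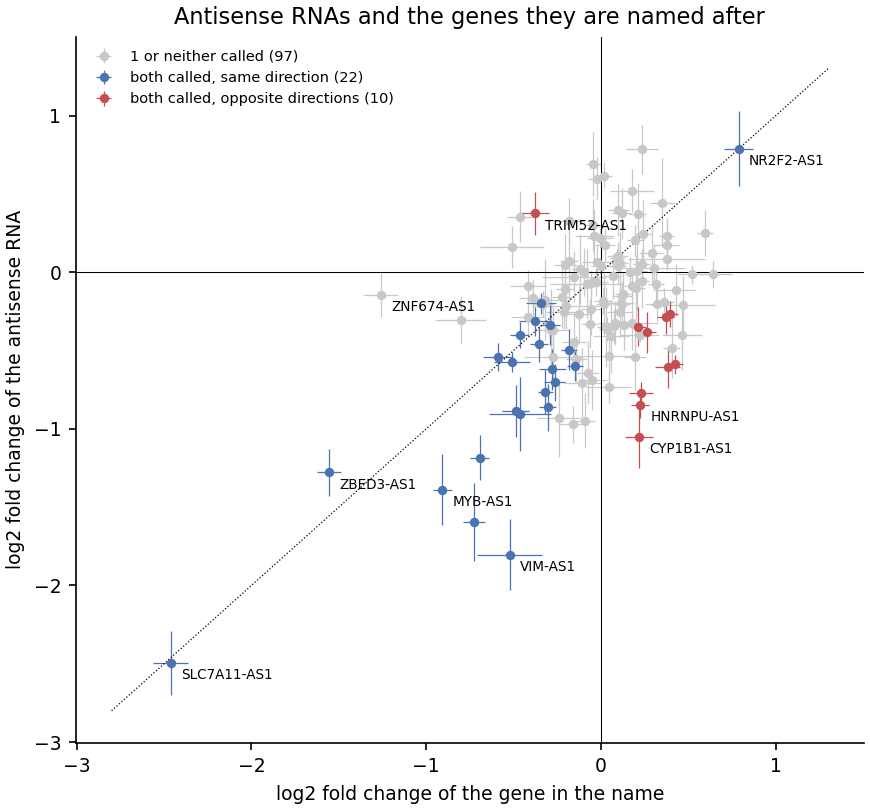
Log2 fold change of each antisense RNA (vertical axis) against that of the gene in its name (horizontal axis) for 129 pairs, knockout over wild type, with standard errors as bars and equal changes on the dotted line. Of the 32 pairs with both RNAs called, 22 (blue) moved in the same direction and 10 (red) in opposite directions, and most points lie below the dotted line.

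Of the pairs that fell together, that of SLC7A11 had the largest changes. SLC7A11, the light chain of the cystine and glutamate exchanger, stood at -2.46 (SE 0.10) in the authors' deposited table, next to -2.49 for SLC7A11-AS1. Their exons overlap, and the mean level of the antisense RNA was 0.95 log2 CPM against 6.47 for SLC7A11 in the authors' deposited table. MYB, a transcription factor of blood progenitors, stood at -0.91 and MYB-AS1 at -1.39 in the authors' deposited table, with overlapping 95% intervals. ZBED3, an axin-binding protein of Wnt signalling, stood at -1.56 and ZBED3-AS1 at -1.28 in the authors' deposited table, also with overlapping intervals. Exons of the MYB and ZBED3 pairs overlap too, so reads of the antisense RNA and of its partner on shared bases cannot be told apart. Mean levels were -0.24 log2 CPM for MYB-AS1 against 8.16 for MYB, and 1.06 for ZBED3-AS1 against 4.97 for ZBED3.

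In other pairs the antisense RNA fell further than its partner. VIM-AS1 stood at -1.80 and VIM, which encodes the intermediate filament vimentin, at -0.52 in the authors' deposited table. SRD5A3-AS1 stood at -1.18 and SRD5A3, an enzyme of dolichol synthesis, at -0.69 in the authors' deposited table. In both pairs the 95% intervals lay apart, and exons of the antisense RNA and its partner overlap. In the authors' deposited table VIM-AS1 was among the scarcest members, at a mean of -0.33 log2 CPM. NADK2-AS1 (-0.89) with the mitochondrial NAD kinase gene NADK2 (-0.49), and BCDIN3D-AS1 (-0.91) with the RNA methyltransferase gene BCDIN3D (-0.46), had overlapping intervals in the authors' deposited table. BCDIN3D was close to the threshold (adjusted p = 0.0497 by the authors' test), and its exons overlap those of BCDIN3D-AS1. Bodies of the NADK2 pair overlap without shared exonic bases.

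The pair that rose together was NR2F2-AS1 and NR2F2, the gene of a nuclear receptor also called COUP-TFII. Both stood at 0.79, with SEs of 0.24 for NR2F2-AS1 and 0.08 for NR2F2 in the authors' deposited table. Their bodies overlap without shared exonic bases in GENCODE 29. The adjusted p was 0.0179 for NR2F2-AS1 and 3.64e-05 for NR2F2 in the authors' deposited table.

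In the 10 pairs that moved apart, the widest difference was in CYP1B1-AS1 and CYP1B1, a cytochrome P450. CYP1B1-AS1 stood at -1.05 and CYP1B1 at 0.22 (adjusted p = 0.0463 by the authors' test) in the authors' deposited table. CYP1B1-AS1 was scarce, at a mean of -0.07 log2 CPM, and its exons overlap those of CYP1B1. HNRNPU-AS1 stood at -0.85 (SE 0.08), and HNRNPU, a nuclear RNA- and chromatin-binding protein, at 0.22 (SE 0.05) in the authors' deposited table. PSMD5-AS1, now listed as the pseudogene CUTALP, stood at -0.59 (SE 0.06) and PSMD5, a chaperone of proteasome assembly, at 0.43 (SE 0.05) in the authors' deposited table. At 5.15 and 5.58 log2 CPM both RNAs of this pair were abundant, but whether PSMD5-AS1 shares reads with a copy was not tested. Bodies of PSMD5-AS1 and PSMD5 overlap without shared exonic bases. BOLA3-AS1 stood at -0.77 (SE 0.07), and BOLA3, which acts in mitochondrial iron-sulfur cluster assembly, at 0.23 (SE 0.07) in the authors' deposited table. RUSC1-AS1 stood at -0.60 and RUSC1 at 0.38 in the authors' deposited table, and their exons overlap.

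The remaining differences were smaller, and exons overlap in the pairs of NIFK, CEBPZ and STARD7. NIFK-AS1 stood at -0.29 and NIFK, a nucleolar partner of Ki-67, at 0.37 in the authors' deposited table. CEBPZ-AS1, now the protein-coding CEBPZOS, stood at -0.27 and CEBPZ at 0.40 in the authors' deposited table. RSBN1L-AS1, now APTR, stood at -0.38 and RSBN1L at 0.26, and STARD7-AS1 stood at -0.35 and STARD7, a lipid transfer protein, at 0.21 in the authors' deposited table. TRIM52-AS1 was the only antisense RNA of these 10 that rose, at 0.38 (adjusted p = 0.0420), while TRIM52, a RING-finger gene, stood at -0.38 in the authors' deposited table. The TRIM52-AS1 call did not hold after centring on abundant genes, where it stood at 0.34.

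**Figure D5:**
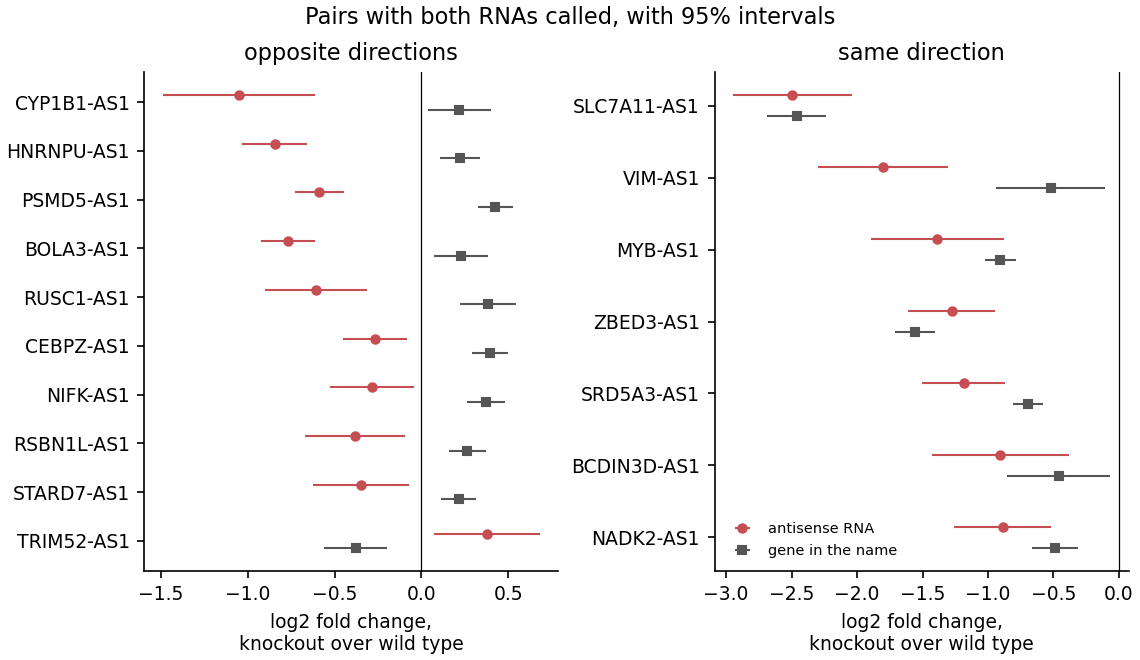
Log2 fold change (horizontal axis, knockout over wild type) of the antisense RNA (red circles) and of the gene in its name (grey squares), with 95% intervals, for the 10 pairs that moved in opposite directions (left) and 7 pairs of large antisense change that moved in the same direction (right). CYP1B1-AS1 at -1.05 lies opposite CYP1B1 at 0.22, and SLC7A11-AS1 at -2.49 lies beside SLC7A11 at -2.46.

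A large change of the named gene did not always go with one of the antisense RNA. ZNF674, a zinc-finger gene on the X chromosome, stood at -1.26 (SE 0.10, adjusted p = 5.84e-06) in the authors' deposited table. ZNF674-AS1, whose start lies 36 bases away without overlap in GENCODE 29, stood at -0.14 in the authors' deposited table, and its 95% interval reached from -0.46 to 0.17. The mean levels per kilobase of the 2 RNAs were alike, at 0.10 log2 CPM per kilobase for ZNF674-AS1 and 0.10 for ZNF674 in the authors' deposited table. OIP5 stood at 0.52 while OIP5-AS1 stood at -0.01 in the authors' deposited table, with intervals apart, and exons of this pair overlap.

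For 94 pairs RefSeq (GRCh38.p14) gives a promoter window for both genes, from 250 bases before to 50 bases after the start. In 36 pairs these windows, read from opposite strands, share bases. Among the 7 such pairs with both RNAs called, 3 moved in the same direction and 4 in opposite directions. A shared stretch of promoter was thus seen with both outcomes. The windows of the antisense RNA are shown for 3 pairs that moved apart and 2 that moved together, chosen after the values were seen, with the bases that lie also in the window of the named gene in capitals.

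BOLA3-AS1 (GRCh38.p14, chr2:74147731-74148030, plus strand) and BOLA3 moved apart, RSBN1L-AS1 (chr7:77696216-77696515, minus strand) and RSBN1L moved apart, and TRIM52-AS1 (chr5:181260962-181261261, plus strand) and TRIM52 moved apart. Their windows share 168, 293 and 168 bases with those of the named genes.
BOLA3-AS1: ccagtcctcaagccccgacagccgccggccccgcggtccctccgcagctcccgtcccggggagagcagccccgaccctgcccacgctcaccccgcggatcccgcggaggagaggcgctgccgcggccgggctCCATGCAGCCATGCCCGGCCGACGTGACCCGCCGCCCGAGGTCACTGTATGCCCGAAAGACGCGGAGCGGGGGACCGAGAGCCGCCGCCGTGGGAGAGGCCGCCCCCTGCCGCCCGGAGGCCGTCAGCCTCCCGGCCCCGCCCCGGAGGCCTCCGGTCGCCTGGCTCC
RSBN1L-AS1: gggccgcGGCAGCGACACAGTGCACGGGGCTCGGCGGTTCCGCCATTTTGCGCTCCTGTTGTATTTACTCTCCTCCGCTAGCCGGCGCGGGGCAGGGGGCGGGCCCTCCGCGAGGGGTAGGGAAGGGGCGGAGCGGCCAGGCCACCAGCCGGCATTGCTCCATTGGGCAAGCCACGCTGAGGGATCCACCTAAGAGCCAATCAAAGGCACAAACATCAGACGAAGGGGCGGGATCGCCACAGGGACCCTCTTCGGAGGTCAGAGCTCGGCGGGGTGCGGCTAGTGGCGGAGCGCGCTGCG
TRIM52-AS1: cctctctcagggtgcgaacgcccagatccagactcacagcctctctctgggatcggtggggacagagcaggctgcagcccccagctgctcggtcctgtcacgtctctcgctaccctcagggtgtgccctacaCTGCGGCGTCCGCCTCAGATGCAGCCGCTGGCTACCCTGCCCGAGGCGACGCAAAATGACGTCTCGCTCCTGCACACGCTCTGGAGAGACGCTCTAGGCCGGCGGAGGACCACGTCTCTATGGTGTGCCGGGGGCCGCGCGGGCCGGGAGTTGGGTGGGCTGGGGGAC

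LENG8-AS1 (GRCh38.p14, chr19:54448989-54449288, minus strand) stood at -0.86 and LENG8 at -0.30 in the authors' deposited table, and their windows share 260 bases. SOX21-AS1 (chr13:94712466-94712765, plus strand) stood at -0.54 and SOX21, a SOX-family transcription factor, at -0.59 in the authors' deposited table, and their windows share 270 bases.
LENG8-AS1: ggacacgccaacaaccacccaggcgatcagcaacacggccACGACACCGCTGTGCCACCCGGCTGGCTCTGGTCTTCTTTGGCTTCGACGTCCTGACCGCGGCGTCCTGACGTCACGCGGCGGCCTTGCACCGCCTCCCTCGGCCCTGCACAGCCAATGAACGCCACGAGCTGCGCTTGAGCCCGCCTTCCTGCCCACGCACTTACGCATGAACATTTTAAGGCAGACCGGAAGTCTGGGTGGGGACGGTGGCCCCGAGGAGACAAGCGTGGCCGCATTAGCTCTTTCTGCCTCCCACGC
SOX21-AS1: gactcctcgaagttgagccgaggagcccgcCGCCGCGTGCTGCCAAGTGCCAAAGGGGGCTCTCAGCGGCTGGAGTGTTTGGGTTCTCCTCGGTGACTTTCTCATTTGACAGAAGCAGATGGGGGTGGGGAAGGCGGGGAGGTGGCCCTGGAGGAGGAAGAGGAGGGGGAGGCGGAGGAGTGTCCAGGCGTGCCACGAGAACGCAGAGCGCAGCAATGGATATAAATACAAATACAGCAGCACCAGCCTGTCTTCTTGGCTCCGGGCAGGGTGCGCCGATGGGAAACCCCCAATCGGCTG

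ERF binds the ETS motif, which was searched as CCGGAAG on both strands. Among the windows shown it occurs in that of LENG8-AS1. It was found in 36 of 156 members with a window, or 23.1%, against 21.1% of 9031 windows of other measured genes and 10.3% of all 35116 windows. By outcome it was found in 10 of 50 lower members, 1 of 10 higher members and 25 of 96 members that were not called. A match is a description of these letters and not a bound site.

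Factors that end or degrade noncoding transcripts were examined as a list, which includes the nuclear exosome, its adaptors and the Integrator complex. Of 43 measured, 15 were higher and 7 lower and their median was 0.07 in the authors' deposited table. The share called was 51.2%, near the 50.9% over all genes. By direction 34.9% were higher and 16.3% lower, against 24.9% and 25.9% over all genes. The lowest were ZCCHC8, a subunit of the exosome adaptor NEXT, at -0.75 (SE 0.05), and EXOSC8, a core exosome subunit, at -0.68 (SE 0.05) in the authors' deposited table. SRRT, which links capped RNA to decay and is also called ARS2, stood at 0.69 (SE 0.06) in the authors' deposited table.

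Other long noncoding RNAs with names of their own were called about as often as all genes, 54.2% against 50.9%. Of 24 measured from a list of 39, 6 were higher and 7 lower and their median was -0.04 in the authors' deposited table. MIR22HG stood at 1.55, MIR17HG, host of the miR-17 cluster, at 1.00 and CRNDE at -0.97 in the authors' deposited table. The abundant nuclear RNA NEAT1, the scaffold of paraspeckles, stood at -0.31 (adjusted p = 0.000489) and MALAT1 at -0.04 (adjusted p = 0.667) in the authors' deposited table; these 2 were chosen after their values were seen.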

How the data were processed

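RNA came from Trizol extracts and was sequenced after TruSeq RNA preparation, per the labels. Tools used by the authors, named in the submitters' processing notes without roles, are edgeR 2.6.12, Cuffdiff, HTSeq, SAMtools and TopHat2 2.0.4, and the build is hg19/GRCh37. For each gene the deposited columns hold, per the file headers, the log2 fold change and the mean log2 CPM. The F score of the authors' quasi-likelihood test in edgeR, its p-value and the adjusted form are also deposited. It has 0 columns of values per sample. Its 3 rows that name no gene hold 21.5% of the CPM and were left out of all counts of genes. The deposited fold changes were multiplied by -1, so that HBG2 is higher in the libraries labelled knockout.

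A gene was called at a deposited adjusted p below 0.05. Standard errors were derived as the absolute log2 fold change over the square root of F, and 95% intervals took 10.3 degrees of freedom, recovered from F with its p. SEs and intervals are approximate. The calculation was tested on simulated data. Gene types, exon lengths and pair layouts came from GENCODE 29 by Ensembl identifier (199 of 203 members), a build other than that of the files, so no coordinate of the files was used. Promoter windows came from RefSeq GRCh38.p14 (156 members). Analyses used Python 3.11.15, pandas 2.3.3 and SciPy 1.17.1.

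Named genes were the 6 largest called increases and decreases in each class, the 5 most abundant members, all pairs called in opposite directions, the 8 largest called in the same direction, pairs whose named gene was called and changed by at least 1 log2 unit, a list of characterised RNAs, and the 3 largest called changes of each other list. One gene that this rule picks is not reported here. Members and lists were chosen with earlier results of these data known. Alternatives varied the sign, threshold, expression minimum, centring, fold minimum, adjustment and pair matching.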

Additional observations from a re-analysis of the deposited data

How the results depend on the processing

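With the deposited sign read as knockout over wild type, the members had 17 lower and 70 higher, their median became 0.20 and all 63 named genes exchanged direction. At an adjusted p below 0.01, 35 antisense RNAs were called, 11 members were higher, and 13 pairs moved together and 3 apart. With a minimum of 3 log2 CPM, which keeps 48 members and 22 pairs, 26 members were called (9 LINC and 17 antisense), 20 lower and 6 higher, and 2 pairs moved together and 5 apart. With a change of at least 1.5-fold, 46 members were called (15 LINC and 31 antisense), 37 lower and 9 higher, with 11 named partner genes, 4 other long noncoding RNAs and 3 decay genes, and 6 pairs moved together and 0 apart, whereas an unadjusted p below 0.05 gave 12 apart. Of the pairs whose exons do not overlap, chosen after seeing the data, 8 moved together and 5 apart. The expression minimum, the fold minimum and the choice of pairs each leave fewer genes or pairs by construction. Centring on the abundant genes (5 log2 CPM or more), a shift of 0.03, gave 80 lower and 15 higher members, and over all genes 2566 higher and 3532 lower. Without the members that are protein-coding in GENCODE 29, also chosen after seeing the data, 67 were lower and 16 higher. Adjusting over genes only, or matching pairs through other symbols, changed no count given here. Of the named genes 12 lost their call at 0.01, 2 under centring and 16 under the fold minimum, and 0 under the other thresholds. Leaving out a library could not be run. No paired analysis was possible because the table holds no values per library. Depth per library is unknown, and the derived standard errors of the 203 members had a median of 0.14.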
